A study of Mus musculus with 4 samples.

Results

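The genes that bring monocytes and macrophages into the liver and keep them alive there were followed through single-cell RNA-seq of mouse liver non-parenchymal cells. They were the chemokines Ccl2, Ccl7, Ccl6, Ccl9 and Ccl24, the chemokine receptors Ccr2 and Cx3cr1, the growth factor Csf1 and its receptor Csf1r. These 9 genes were taken by name, not by their values, and all 9 were found among the 54456 gene symbols of the count matrices.

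The mice were C57BL/6J and 30 weeks old, and the groups S, E, HFD_sed and HFD_EXE had 1 droplet library each, made with 10x 3′ chemistry. HFD stands for high fat diet, and exercise is the other factor the study names. No transgene, deletion or drug is named for any group. The labels do not spell out the remaining letters: HFD_sed and HFD_EXE are read here as high fat diet without and with exercise, and S only as a library whose title names no high fat diet. Values came from S, HFD_sed and HFD_EXE, and E was not analysed for its levels. The sources used here do not say what the diet held or how long it lasted, which exercise was used, or whether a library held 1 mouse or several.

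CCL2 and CCL7 are ligands of CCR2, the receptor that lets classical monocytes leave the bone marrow and enter inflamed tissue. CCL6 and CCL9 are chemokines of mouse myeloid cells, and CCL24 (eotaxin-2) is a ligand of CCR3, the receptor on eosinophils. CX3CR1 is the fractalkine receptor, used by patrolling monocytes and by some tissue macrophages. CSF1 signals through CSF1R and keeps Kupffer cells, the resident macrophages of the liver sinusoid, alive. Liver sinusoidal endothelial cells (LSECs) line the vessels in which Kupffer cells sit.

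Filtering left 10212, 10740 and 10172 cells in S, HFD_sed and HFD_EXE, at median depths of 6150, 4179.5 and 4917.5 unique molecular identifiers (UMIs, one for each captured transcript). The protocol states 5000 to 6000 captured cells per sample, while the matrices hold 11660, 11752 and 11280 barcodes. Any pair of libraries had between 29 and 46 cell barcodes in common. Classes of cells were compared where each library held at least 100 cells, which gave 9 classes. LSECs made up 39.3%, 24.8% and 58.2% of the kept cells of S, HFD_sed and HFD_EXE, Kupffer cells 21.7%, 6.20% and 10.4%, and monocytes 1.87%, 11.8% and 1.48%. A class of capsule-type macrophages, led by Cd207, Mmp12 and Ms4a7, held 57, 576 and 107 cells and is given by its levels alone. All 9 LSEC markers, all 9 Kupffer markers and all 11 monocyte markers had UMIs in the class of that name in each library. The 9 genes and their relatives were left out of the genes used for clustering, so their levels did not shape the classes directly.

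Libraries differed in which clusters filled a class. Of the LSECs of S, 3926 of 4015 lay in cluster 1, of those of HFD_sed 2188 of 2661 lay in cluster 2, and of those of HFD_EXE 4822 of 5921 lay in cluster 0. Kupffer cells of S lay in cluster 3 for 2094 of 2220 cells, while cluster 6 held 592 of 666 in HFD_sed and 982 of 1058 in HFD_EXE. Their median depths were 9573, 3085.5 and 3720 UMIs in S, HFD_sed and HFD_EXE. A cluster mostly of 1 library may reflect that library as much as a kind of cell, and values are therefore also given by cluster where the results turn on them.

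Levels are CPM, the UMIs of a gene in a class per 1000000 UMIs of that class in that library, with exact Poisson 95% intervals. Because each group had 1 library, no test between groups was possible. The intervals cover counting error only, not the difference between mice, and a gene is called higher or lower only as a description, where its ratio between libraries was at least 1.5. B cells, which are not known as a source of most of these transcripts, serve as a guide to free RNA in the droplets.

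**Figure D1:**
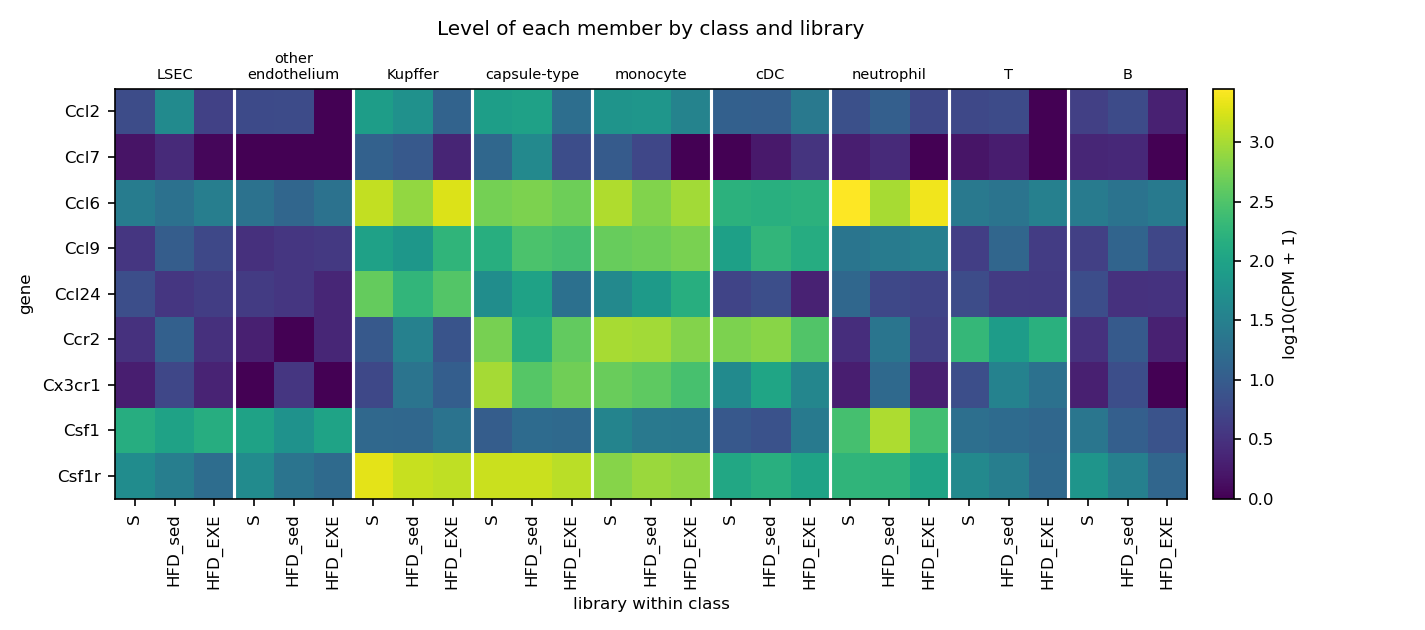
Level of each of the 9 genes, as log10(CPM + 1) in colour, in each class (blocks) and library (columns). Csf1r is bright in Kupffer cells, capsule-type macrophages and monocytes, Ccr2 in monocytes and dendritic cells, and Csf1 in neutrophils, LSECs and other endothelium.

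Ccl2, the principal CCR2 ligand, was mostly a Kupffer cell transcript in S and was spread over several cell types in HFD_sed. Kupffer cells held it at 82.4 CPM (78.7 to 86.2) in S, at 54.9 CPM (47.0 to 63.9) in HFD_sed and at 11.7 CPM in HFD_EXE, the last from 63 UMIs. Monocytes had 59.2, 64.4 and 34.4 CPM, and capsule-type macrophages 85.4, 92.3 and 16.8 CPM. HFD_EXE was the lowest library in all 3 phagocyte classes, and its interval did not overlap that of HFD_sed in any of them. Conventional dendritic cells had another order, at 10.6, 10.2 and 24.2 CPM, with HFD_EXE the highest. The ratio of HFD_EXE to HFD_sed was 0.213 (0.157 to 0.286) in Kupffer cells and 0.534 (0.388 to 0.718) in monocytes.

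Between S and HFD_sed the Kupffer level depended on the cluster. Within cluster 3 Ccl2 was at 83.7 CPM in S, 27.1 CPM in HFD_sed and 2.22 CPM in HFD_EXE, and within cluster 6 at 28.1, 58.7 and 12.6 CPM. HFD_sed was thus below S in the one cluster and above it in the other, while HFD_EXE was lowest in both. The cluster 3 levels of HFD_sed and HFD_EXE rest on 74 and 76 cells and few UMIs. Over the whole class HFD_sed was at 0.666 times S (0.566 to 0.780), a log2 ratio of -0.59 that lay between -0.66 and -0.05 over 12 other ways of processing and passed 1.5-fold in 5 of them. Among those 5 is leaving out clusters of low UMI count, which removed no Kupffer cell.

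LSECs differed from the phagocytes in that HFD_sed alone was high. Their Ccl2 level stood at 5.39 CPM (4.60 to 6.29) in S, at 43.9 CPM (40.7 to 47.3) in HFD_sed and at 3.71 CPM (3.08 to 4.43) in HFD_EXE. B cells of the same libraries had 3.44, 5.11 and 1.11 CPM. HFD_sed was 8.14 times S (6.85 to 9.71), and HFD_EXE was 0.0845 times HFD_sed (0.0692 to 0.102). Other vascular endothelium had 4.96 and 5.06 CPM in S and HFD_sed, from 141 and 69 cells, and no UMI in 123 cells of HFD_EXE.

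The LSEC signal came from few cells. In HFD_sed, 166 of 2661 LSECs (6.24%) had a Ccl2 UMI, and 17 cells with 10 or more UMIs held 450 of the 697 UMIs (64.6%). In S, 117 of 4015 LSECs (2.91%) had a UMI, and 106 of them held exactly 1. In HFD_EXE, 63 of 5921 LSECs (1.06%) had a UMI. Most LSECs of HFD_sed thus had no Ccl2 UMI, and a small minority carried up to 56. With every cell thinned to 1500 UMIs, which left out 238, 207 and 634 shallower LSECs, the share with a Ccl2 UMI was 0.582%, 2.49% and 0.359% in S, HFD_sed and HFD_EXE, against 0.295%, 0.518% and 0.428% in B cells. Without the single cell richest in Ccl2 of each library, the levels were 4.44, 40.4 and 3.29 CPM.

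High Ccl2 went with LSEC cluster 2 as well as with the library. Cluster 2 is led by Esm1, Ccn2 and Depp1 and passed 4 of the LSEC markers. Its level was 47.9 CPM (44.4 to 51.7) in the 2188 cells of HFD_sed and 43.4 CPM (31.1 to 58.9) in the 133 cells of HFD_EXE, and these intervals overlap. The 12 cells of S in it held 31 UMIs, 29 of them in 1 cell. Outside it, cluster 1 of S had 4.42 CPM and cluster 0 of HFD_EXE 1.53 CPM, while the 144 and 282 cells of HFD_sed that fell in clusters 1 and 0 had 7.32 and 4.45 CPM. Cluster and library therefore cannot be told apart for most LSECs: where they cross, Ccl2 was high in cluster 2 of HFD_EXE and low outside cluster 2 in HFD_sed.

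The cells richest in Ccl2 were examined for other cells' genes, a comparison chosen after the values were seen. The 27 LSECs of HFD_sed with 4 or more Ccl2 UMIs had the 9 LSEC markers at a summed 9468 CPM, against 13535 CPM in the 2495 LSECs without Ccl2. Their monocyte markers summed to 354 CPM against 532 CPM and their Kupffer markers to 299 CPM against 475 CPM. Their median UMI count was 7531 against 5349. In S, the 5 such LSECs had monocyte markers at 165 CPM against 78.4 CPM and Kupffer markers at 1024 CPM against 838 CPM in those without Ccl2, so both lists were lower in the Ccl2-rich cells of HFD_sed and higher in the few of S. In HFD_EXE, the 7 such cells had 175 against 261 CPM and 139.8 against 471 CPM. The LSEC markers were lower in the Ccl2-rich cells of these libraries too, at 12339 against 17254 CPM in S and 13469.8 against 17317 CPM in HFD_EXE. Over all LSECs, the 11 monocyte markers summed to 78.5, 526 and 260 CPM in S, HFD_sed and HFD_EXE. A list of 14 immediate early and heat shock genes, which respond to dissociation of tissue, summed to 3221, 8155 and 4680.0 CPM. Both lists were highest in the library with the most Ccl2, and their part in the difference between libraries was not tested; within HFD_sed the immediate early and heat shock genes were at 7588 CPM in the 27 cells and at 7944 CPM in the LSECs without Ccl2. The same list was at 7477 against 3188 CPM in S and at 8264 against 4614 CPM in HFD_EXE, so the few Ccl2-rich LSECs of those libraries had more of it.

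**Figure D2:**
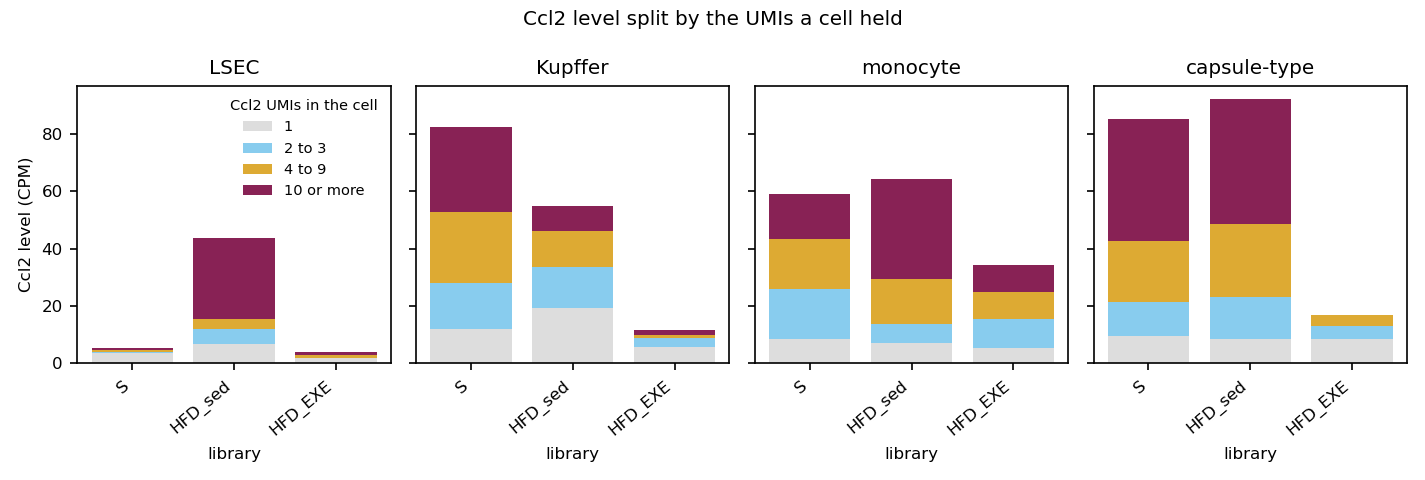
Ccl2 level in CPM (linear axis from 0) in LSECs, Kupffer cells, monocytes and capsule-type macrophages of each library, each bar split by how many Ccl2 UMIs the cells held. In LSECs of HFD_sed most of the bar comes from cells with 10 or more UMIs, while Kupffer cells of S draw on cells of every step.

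Ccl7, the other CCR2 ligand among the 9, was sparse. Kupffer cells had 10.6, 8.13 and 1.30 CPM in S, HFD_sed and HFD_EXE, from 242, 25 and 7 UMIs. Capsule-type macrophages had 13.3, 41.1 and 5.61 CPM, and 1 cell held 97 of the 255 UMIs of HFD_sed. Their levels in S and HFD_EXE came from 10 and 6 UMIs, and the intervals of these libraries overlapped. Monocytes had 8.88 CPM in S and 4.47 CPM in HFD_sed. In S only 1 of 32 monocytes with Ccl2 and 2 of 159 without had a Ccl7 UMI, so very few cells set that level. None of the 151 monocytes of HFD_EXE had a Ccl7 UMI, which allows a level of up to 2.20 CPM (3 UMIs of the class total) and places HFD_EXE at least 2.04-fold lower than HFD_sed. As for Ccl2, HFD_EXE was the lowest library in each of these phagocyte classes. Conventional dendritic cells held 0, 3 and 4 UMIs in S, HFD_sed and HFD_EXE, with HFD_EXE the highest.

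LSECs had 0.529, 1.57 and 0.151 CPM of Ccl7, from 16, 25 and 5 UMIs, and B cells of S, HFD_sed and HFD_EXE held 4, 5 and 0 UMIs. Ccl7 and Ccl2 shared cells: in S, 67 of the 569 Kupffer cells with Ccl2 also had Ccl7 (11.8%), against 38 of the 1651 without (2.30%), with median depths of 12295 and 8623 UMIs. In monocytes of HFD_sed, 14 of 150 cells with Ccl2 had Ccl7 (9.33%), against 7 of 1115 without (0.628%), with median depths of 9039.5 and 8238 UMIs. Ccl7 was more frequent in cells with Ccl2 in both, and those cells were also deeper.

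**Figure D3:**
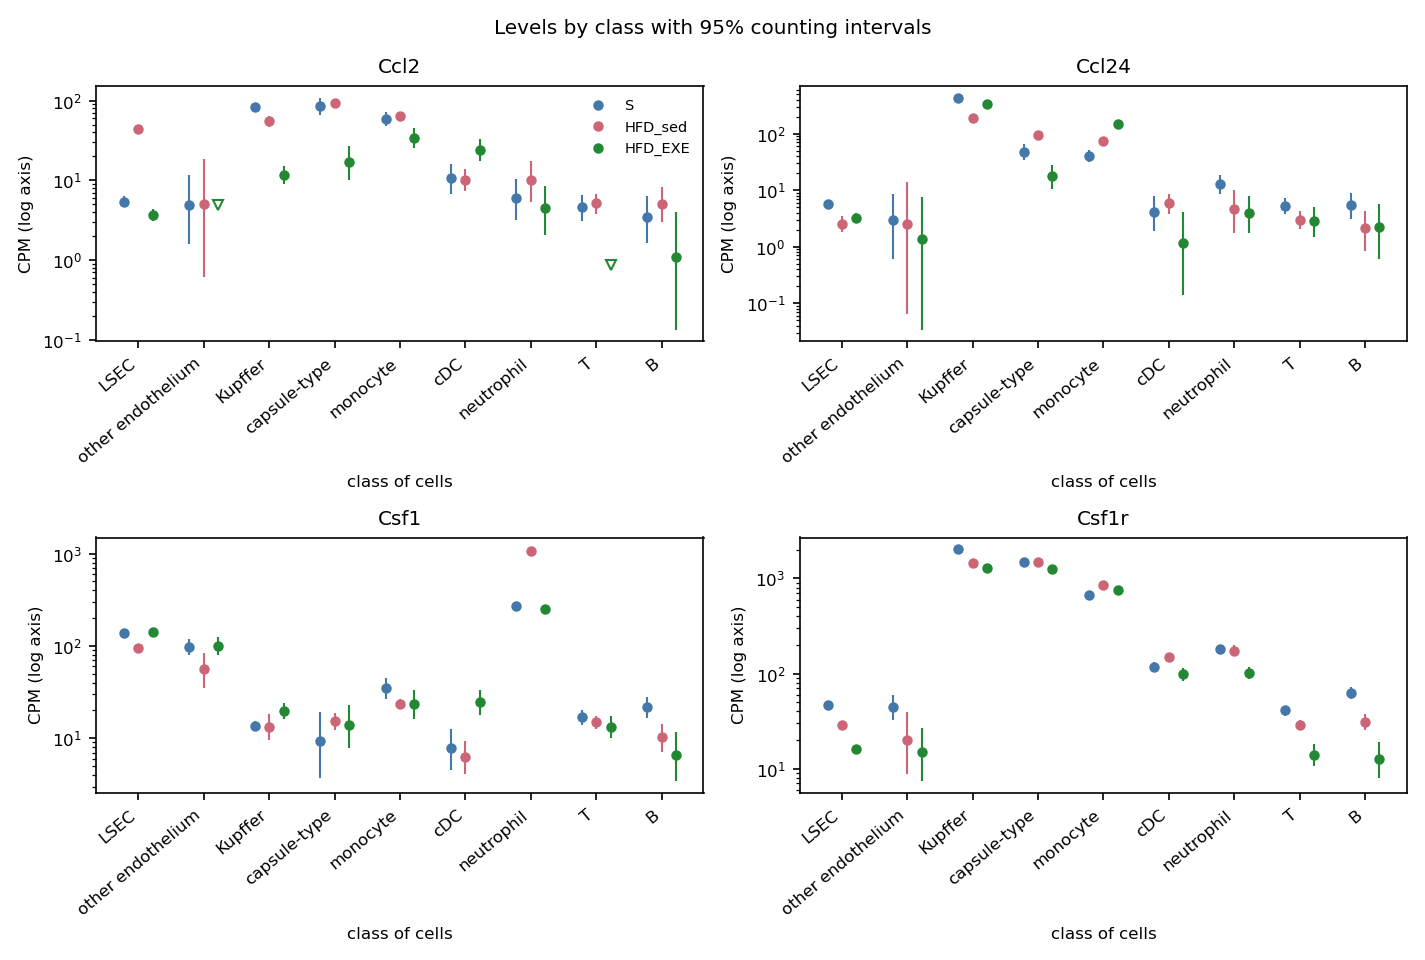
Levels of Ccl2, Ccl24, Csf1 and Csf1r (CPM, log axis) in each class, with 95% Poisson intervals as bars and one colour for each library; an open triangle marks the upper bound where a class had no UMI. LSECs of HFD_sed stand at 43.9 CPM of Ccl2, and neutrophils of HFD_sed at 1060.2 CPM of Csf1.

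Ccl6 and Ccl9 are neighbouring genes on mouse chromosome 11 that code for related chemokines. Their highest levels among the compared classes lay in different cells, neutrophils and monocytes. So that the upstream letters of the pair can be read side by side, the 250 bases before each start are given from RefSeq's table (GRCm38.p6; Ccl6 at chr11:83593088-83593337 and Ccl9 at chr11:83578637-83578886, both on the minus strand, printed 5′ to 3′ along the gene). Capitals mark matches, on either strand, to 4 motifs of myeloid or basal promoters: AP-1 (TGANTCA), C/EBP (TTNNGNAA), PU.1 (GAGGAAGT) and the TATA box (TATAAA).
Ccl6 upstream: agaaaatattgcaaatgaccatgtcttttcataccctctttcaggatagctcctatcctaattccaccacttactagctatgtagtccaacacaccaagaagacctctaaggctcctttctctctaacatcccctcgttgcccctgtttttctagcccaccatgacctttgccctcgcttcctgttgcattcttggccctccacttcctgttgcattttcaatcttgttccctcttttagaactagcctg
Ccl9 upstream: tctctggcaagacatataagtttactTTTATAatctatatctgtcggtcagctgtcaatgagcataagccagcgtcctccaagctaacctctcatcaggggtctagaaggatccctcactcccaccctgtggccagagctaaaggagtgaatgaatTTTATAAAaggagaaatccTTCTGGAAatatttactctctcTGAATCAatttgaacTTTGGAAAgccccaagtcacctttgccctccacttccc
Ccl9 had 1 AP-1 match, 2 C/EBP matches and 3 TATA matches, and Ccl6 had no match to any of the 4. Over 32536 promoter windows of this length, 6.73% held an AP-1 match, 36.8% a C/EBP match, 2.45% a PU.1 match and 12.3% a TATA match, so the C/EBP letters in particular are common. The Ccl6 and Ccl9 windows were identical at 51.8% of 224 aligned bases, which lay within the 42.4% to 56.9% found between the other pairs of the 5 genes with a window in the table. The longest run of letters found in both was 13 bases, against 6 to 10 in the other pairs. A match is a description of letters, not of binding.

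Neutrophils had the highest Ccl6 of the 9 compared classes in each library, at 2818 CPM in S, 996 CPM in HFD_sed and 2359 CPM in HFD_EXE. Their Ccl9, at 21.0, 26.4 and 30.2 CPM, was below that of Kupffer cells, monocytes and dendritic cells in each library. HFD_sed was the low library for neutrophil Ccl6, at 0.353 times S (0.332 to 0.375). Neutrophils fell into a pair of clusters whose shares changed with the library: cluster 20, led by Acod1 and Cxcl2 among others, held 283 of the 482 neutrophils of HFD_sed but 23 and 18 in S and HFD_EXE. Within cluster 7, the larger cluster in S and HFD_EXE, Ccl6 was at 2890.1, 1743 and 2408 CPM, and within cluster 20 at 714, 416 and 476 CPM. HFD_sed was the lowest library within both.

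Kupffer cells had Ccl6 at 1357 CPM (1341 to 1372) in S, at 780 CPM (749 to 811) in HFD_sed and at 1843 CPM (1807 to 1879) in HFD_EXE. Their Ccl9 had the same order of libraries, at 92.4, 66.6 and 178 CPM. HFD_EXE was above both other libraries for both chemokines, at 2.36 times HFD_sed for Ccl6 (2.26 to 2.47) and 2.67 times for Ccl9 (2.30 to 3.13). Within cluster 6, which held most Kupffer cells of both of these libraries, Ccl6 was at 835, 775 and 1841 CPM and Ccl9 at 80.7, 70.2 and 176 CPM. For Ccl9 this order rests on capsule-type macrophages being kept apart: with them counted among Kupffer cells the log2 ratio of HFD_EXE to HFD_sed was -0.19 in place of 1.42, and that of HFD_sed to S was 1.21 in place of -0.47. The neutrophil marker list summed to 173, 552 and 446 CPM in Kupffer cells of S, HFD_sed and HFD_EXE, and its part in the Ccl6 levels was not tested.

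Monocytes had the highest Ccl9 of the compared classes, at 437, 488 and 568 CPM, and HFD_EXE was 1.30 times S. Their Ccl6 was at 1097 CPM in S, 626 CPM in HFD_sed and 923 CPM in HFD_EXE. Within monocytes, cluster 8, led by Chil3 and F13a1 as classical monocytes are, had Ccl9 at 646, 500 and 648 CPM. Cluster 21, led by Ace as non-classical monocytes are, had it at 188, 317 and 287 CPM. The order of the libraries over the whole class thus held in neither cluster, and in cluster 8 S and HFD_EXE were nearly level. Ccl9 was lower in the Ace cluster in every library, and Ccl6 was at 652, 594 and 535 CPM there against 1468, 628 and 1033 CPM in the other, nearly level in HFD_sed. Monocytes often held both chemokines: in HFD_sed 891 of 1044 cells with Ccl6 had Ccl9 (85.3%), against 114 of 221 without (51.6%), with median depths of 8538 and 7074 UMIs. Of Kupffer cells of S with Ccl6, 823 of 2045 had Ccl9 (40.2%), against 20 of 175 without (11.4%), with median depths of 10354 and 1883 UMIs. In neutrophils of S the share was 29 of 642 (4.52%). Basophils or mast cells, a class of 12, 18 and 14 cells and so not compared, had Ccl6 at 970.0, 1417 and 3513 CPM and Ccl9 at 478, 581 and 1396 CPM, levels in the range of these myeloid classes or above them.

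Ccl24 had its highest level among the compared classes in Kupffer cells in each library. It stood at 425 CPM (417 to 434) in Kupffer cells of S, at 188 CPM (173 to 204) in HFD_sed and at 335 CPM (320 to 351) in HFD_EXE, with no overlap of intervals. HFD_sed was at 0.442 times S (0.406 to 0.481), and HFD_EXE was at 1.78 times HFD_sed (1.62 to 1.96). Within cluster 3 the levels were 428, 266 and 308 CPM and within cluster 6 they were 289, 177 and 338 CPM, so HFD_sed was lowest in both. The share of Kupffer cells with a UMI after thinning was 41.4%, 17.5% and 33.8%, against 1.18%, 0.311% and 0.642% of B cells. In S, 270 of 2220 Kupffer cells held 10 or more UMIs, in HFD_sed 2 of 666 did, and in HFD_EXE 25 of 1058 did.

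In monocytes Ccl24 had another order, at 40.8, 75.2 and 146 CPM in S, HFD_sed and HFD_EXE. Few cells carried it: 17 of 191, 99 of 1265 and 17 of 151 monocytes had a UMI, and cells with 10 or more UMIs held 76.8%, 78.2% and 81.0% of the total. Without the richest cell of each library the levels were 15.5, 67.9 and 94.3 CPM, so the order stayed while the distance between HFD_sed and HFD_EXE came below 1.5-fold. Cluster 8 had nearly all of it, at 70.6, 80.2 and 187 CPM, and the Ace cluster had 5.20, 1.49 and 3.30 CPM. Within cluster 8 alone, HFD_sed and S differed by a log2 ratio of 0.18, in place of 0.88 over both clusters. Capsule-type macrophages had their highest Ccl24 level in HFD_sed, from 36, 592 and 19 UMIs in S, HFD_sed and HFD_EXE.

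Ccr2, the receptor for CCL2 and CCL7, was highest in monocytes in each library, at 984 CPM (937 to 1033) in S, at 940 CPM (922 to 959) in HFD_sed and at 639 CPM (597 to 683) in HFD_EXE. Conventional dendritic cells had 583, 689 and 325 CPM. S and HFD_sed overlapped in monocytes, at a ratio of 0.956 (0.907 to 1.01), and HFD_EXE was the lowest library in both classes. Within cluster 8 the order was 1725, 996 and 815 CPM, so S was well above HFD_sed among classical-type monocytes. In cluster 21 it was 98.7, 122 and 19.8 CPM.

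Lymphoid and plasmacytoid cells also held Ccr2, which is known on memory T cells and natural killer cells. The class named natural killer cells or ILC1 had 187, 154 and 149 CPM. It joins cluster 18, with 272, 556 and 340 CPM, and cluster 14, with 110, 46.8 and 40.9 CPM, and cluster 14 passed 6 T cell markers beside 5 of its own. Over the class the T cell list summed to 1895, 3159.8 and 1313 CPM and the natural killer list to 4134, 2836 and 3479 CPM, and the part of this makeup in the Ccr2 levels was not tested. Plasmacytoid dendritic cells had 317, 242 and 279 CPM, and in T cells HFD_sed was the lowest library. Kupffer cells had 8.20, 32.2 and 6.87 CPM, HFD_sed being 3.92 times S (3.04 to 5.03). The capsule-type marker list in Kupffer cells was at 271, 513 and 231 CPM, also highest in HFD_sed, and B cells had their highest Ccr2 there too; the part of either in the Kupffer level was not tested. The Kupffer level lay in cluster 6, with 35.5 CPM in HFD_sed, while the 74 Kupffer cells of HFD_sed in cluster 3 had 8.14 CPM. LSECs, at 2.08, 10.4 and 2.05 CPM, stood beside 2.06, 8.42 and 1.11 CPM in B cells. In S and HFD_sed, Ccr2 in LSECs was thus near the CPM of B cells, although HFD_sed was 4.99 times S (3.71 to 6.77). LSECs were deeper than B cells, and this ratio stayed past 1.5-fold with the UMIs per cell of B cells subtracted.

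Cx3cr1 was highest in capsule-type macrophages in S and HFD_EXE, at 951 and 508 CPM, and in monocytes in HFD_sed, at 389 CPM against 343 CPM. Monocytes of S and HFD_EXE had 460 and 278 CPM, so the order of the libraries over the whole monocyte class was S, HFD_sed, HFD_EXE, as for Ccr2. Within monocytes, the Ace cluster had more Cx3cr1 than cluster 8 in every library, at 598, 663 and 360 CPM against 345, 370 and 255 CPM. This is the reverse of Ccr2 and is the known division between non-classical and classical monocytes. Within each of these clusters Cx3cr1 was higher in value in HFD_sed than in S, so the class order of S and HFD_sed held in neither. The Ace cluster held 110 of 191 monocytes in S and 156 of 1265 in HFD_sed, and the part of these shares was not tested. Kupffer cells had 4.56, 20.2 and 9.65 CPM of Cx3cr1. Dendritic cells had 43.7, 106 and 37.4 CPM, and the receptors shared cells there: in HFD_sed 122 of 290 with Ccr2 had Cx3cr1 (42.1%), against 10 of 88 without (11.4%), with median depths of 10807 and 8283 UMIs. This class was cluster 13 alone, whose leading genes included both Xcr1 and Cd209a. The part of its makeup in these shares and levels was not tested.

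Capsule-type macrophages held both receptors, with HFD_sed low. Ccr2 was at 551, 141 and 418 CPM in them, beside the Cx3cr1 levels above. HFD_sed was also the library in which the class was largest, at 5.36% of kept cells against 0.558% in S and 1.05% in HFD_EXE. In the cells of the class without a Ccl2 UMI, the Kupffer markers summed to 2456, 6678 and 1779.8 CPM in S, HFD_sed and HFD_EXE, so they were highest in the library where both receptors were low, and their part was not tested. These are macrophages named from genes of the liver capsule, but their leading genes also include Mmp12 and the complement genes C1qa and C1qb, and 3 markers of lipid-associated macrophages passed in the same cluster.

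Csf1 was held mainly by LSECs and neutrophils. LSECs held it at 138 CPM (134 to 143) in S, at 95.7 CPM (90.9 to 101) in HFD_sed and at 141 CPM (137 to 145) in HFD_EXE. The intervals of S and HFD_EXE overlapped, with a ratio of 1.02 (0.974 to 1.06), and HFD_sed was at 0.691 times S (0.651 to 0.733), short of the 1.5-fold used to call a gene lower. Other vascular endothelium had 97.1, 55.6 and 101 CPM. Kupffer cells, which depend on the factor, held 13.6, 13.3 and 19.9 CPM, beside 21.7, 10.2 and 6.63 CPM in B cells.

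Csf1 was widely spread over LSECs, since 1943 of 4015, 808 of 2661 and 2465 of 5921 cells had a UMI and cells with 10 or more UMIs held 6.67%, 9.35% and 4.01% of the total. After thinning, 16.1%, 11.0% and 17.2% of LSECs had a Csf1 UMI against 1.91%, 0.828% and 0.857% of B cells. This is unlike Ccl2 in the LSECs of HFD_sed, where a few cells held most of the UMIs. The cluster holding most LSECs of each library gave 138 CPM in S (cluster 1), 95 CPM in HFD_sed (cluster 2) and 142 CPM in HFD_EXE (cluster 0), while the 133 cells of HFD_EXE in cluster 2 had 155 CPM. For Csf1 the HFD_EXE cells of cluster 2 were thus like the other LSECs of their library, whereas for Ccl2 they were like the HFD_sed cells of their cluster. In HFD_sed, 82 of 166 LSECs with Ccl2 had Csf1 (49.4%), against 29.1% of those without, with median depths of 7580.5 and 5349 UMIs.

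Neutrophils also held Csf1, with HFD_sed the highest library instead of the lowest. They had it at 273 CPM (251 to 296) in S, at 1060.2 CPM (1005 to 1118) in HFD_sed and at 254 CPM (232 to 277) in HFD_EXE, HFD_sed being 3.89 times S (3.53 to 4.29). Cluster 20 had 1679, 1555 and 535 CPM, and cluster 7 had 224, 422 and 246 CPM. The high level thus went with cluster 20 in S as in HFD_sed, and HFD_sed exceeded S by more than 1.5-fold within cluster 7 but not within cluster 20. The immediate early and heat shock list was at 24208, 29242 and 31688 CPM in neutrophils of S, HFD_sed and HFD_EXE. The lipid-associated macrophage list was at 851, 3385 and 1000.4 CPM there, highest in the library with the most Csf1, and the neutrophil list at 115202, 72061 and 108234 CPM, lowest in it. The part of these lists in the Csf1 levels was not tested. Basophils or mast cells had 612, 255 and 562 CPM, and cluster 27, of mesothelial and fibroblast type genes, 245, 99.9 and 157 CPM.

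Csf1r, the receptor, marked the 3 phagocyte classes. Kupffer cells held it at 2016 CPM in S, at 1462 CPM (1419 to 1505) in HFD_sed and at 1297 CPM (1266 to 1327) in HFD_EXE, HFD_EXE being at 0.643 times S (0.627 to 0.659). Within cluster 3 the levels were 2041, 1770 and 1427 CPM, and within cluster 6 they were 990.5, 1420.0 and 1285 CPM, so S was the highest library in the one and the lowest in the other. Capsule-type macrophages had 1472, 1504 and 1248 CPM, and monocytes 675, 852 and 759 CPM. Kupffer cells stood above capsule-type macrophages in S, the intervals of these classes overlapped in HFD_sed and HFD_EXE, and monocytes were the lowest of the 3 in each library. Neutrophils, at 182, 174 and 102 CPM, and conventional dendritic cells, at 117, 151 and 98.5 CPM, had less. LSECs had 46.7, 28.8 and 16.3 CPM, near the 62.6, 31.3 and 12.7 CPM of B cells, and these levels went in the order of the Csf1r of the whole library, at 671, 417 and 184 CPM.

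The 9 genes were then counted in LSECs, where all had at least 20 UMIs in S and HFD_sed together. HFD_sed was at least 1.5-fold above S for 5 (Ccl2, Ccl7, Ccl9, Ccr2 and Cx3cr1) and below it for 2 (Ccl24 and Csf1r), with a median log2 ratio of 1.57 against 0.08 over the 15054 genes measured. Of those, 17.3% were higher and 11.9% lower by the same rule. Apart from Ccl2, each of these LSEC levels lay near that of B cells in the higher library: Ccl7 at 1.57 CPM against an interval of 0.488 to 3.51 CPM, Ccl9 at 9.38 against 12.0 CPM, Ccr2 at 10.4 against 8.42 CPM, Cx3cr1 at 4.47 against 5.72 CPM, Ccl24 at 5.72 against 5.50 CPM and Csf1r at 46.7 against 62.6 CPM. In CPM the count is thus mostly of levels near those of B cells. Ccl2 is the one of the 7 that stands above them. LSECs were deeper than B cells, at median depths of 5475 against 2872 UMIs in HFD_sed, so a like CPM is more UMIs per cell. Of the 7, all but Csf1r passed 1.5-fold in all 11 other ways of processing. Subtraction of the UMIs per cell of B cells was among these. The part of free RNA in these levels was not tested. From HFD_sed to HFD_EXE, LSECs were higher for 1 gene (Ccl6, beside 11% of all genes) and lower for 6 (beside 15.8%), namely the 5 that had been high in HFD_sed and Csf1r, with a median log2 ratio of -1.02 against -0.07 over all genes. Ccl6 in LSECs was near the CPM of B cells in each library. In HFD_EXE, LSECs held 58.1% of all UMIs and 5.22% of Ccl6 UMIs, and B cells 3.17% and 0.250%. The Ccl6 ratio passed 1.5-fold in all 11 other ways of processing, and the part of free RNA in it was not tested.

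Kupffer cells of HFD_sed were higher than those of S for 2 of the 9 genes (Ccr2 and Cx3cr1, beside 11.2% of all genes) and lower for 3 (Ccl2, Ccl6 and Ccl24, beside 14.4%). HFD_EXE was higher than HFD_sed in Kupffer cells for 3 (Ccl6, Ccl9 and Ccl24, beside 12.8% of all genes) and lower for 4 (Ccl2, Ccl7, Ccr2 and Cx3cr1, beside 9.37%). For Cx3cr1 this log2 ratio of -1.06 lay between -2.43 and -0.13 over the 12 alternatives. It passed 1.5-fold in 7 of them, counting the setting that removed no Kupffer cell. The chemokines thus divided in HFD_EXE Kupffer cells, with the CCR2 ligands below and Ccl6, Ccl9 and Ccl24 above HFD_sed. The median log2 ratio of the 9 was -0.46 and then -0.17, against 0.00 and 0.02 over all genes.

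Monocytes of HFD_sed were higher than those of S for 1 gene (Ccl24, beside 13.1% of all genes) and lower for 2 (Ccl7 and Ccl6, beside 23.4%). The Ccl7 level of S came from very few cells. HFD_EXE monocytes were higher than those of HFD_sed for 1 (Ccl24, beside 18.3% of all genes) and lower for 2 (Ccl2 and Ccl7, beside 9.82%). Most of these counts are near what the shares of all genes would give among 9 genes. The median log2 ratios were -0.07 and -0.17, against -0.13 and 0.05 over all genes. The LSEC marker list was at 2843, 478 and 2436 CPM in monocytes of S, HFD_sed and HFD_EXE, and its part in these ratios was not tested.

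HFD_EXE against S shares its libraries with the other comparisons and is given side by side. In Kupffer cells 2 genes were higher (Ccl9 and Cx3cr1, beside 15.1% of all genes) and 3 lower (Ccl2, Ccl7 and Csf1r, beside 14.3%). In LSECs 1 was higher (Ccl9, beside 11.1%) and 3 lower (Ccl7, Ccl24 and Csf1r, beside 11.5%). The Ccl9 level of HFD_EXE LSECs was near that of B cells. Monocytes had 8 of the genes measured, of which 1 was higher (Ccl24, beside 9.6%) and 3 lower (Ccl2, Ccr2 and Cx3cr1, beside 13.5%). Kupffer Ccl2 was at 0.142 times S (0.109 to 0.182).

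Where the transcripts of a gene sat in a library followed both the levels and the number of cells. Kupffer cells held 80.1% of the Ccl2 UMIs of S, 7.48% of those of HFD_sed and 10.8% of those of HFD_EXE. In HFD_sed LSECs (30.9%), monocytes (30.0%) and capsule-type macrophages (25.4%) shared them. In HFD_EXE the largest share, 45.6%, came from 5 of the 12 cells of cluster 27, which held 266 Ccl2 UMIs, 222 of them in 1 cell, while the 46 such cells of S held 4. For Ccl24, Kupffer cells held 95.3% of the UMIs in S and 81.7% in HFD_EXE, but 27.6% in HFD_sed, where monocytes held 37.7% and capsule-type macrophages 28.2%. For Ccl7, Kupffer cells held 80.4% in S and capsule-type macrophages 68.0% in HFD_sed.

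The receptors and the growth factor were redistributed too. Kupffer cells held 89.1%, 18.2% and 66.4% of Csf1r UMIs in S, HFD_sed and HFD_EXE, and in HFD_sed capsule-type macrophages (37.7%) and monocytes (36.2%) held more. Monocytes held 29.8%, 64.6% and 28.7% of Ccr2 UMIs and 40.2%, 56.5% and 32.3% of Cx3cr1 UMIs. LSECs held 71.9%, 42.3% and 81.0% of Csf1 UMIs, and neutrophils 10.1%, 38.0% and 8.75%. In HFD_sed, neutrophils therefore came close to LSECs as holders of Csf1.

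**Figure D4:**
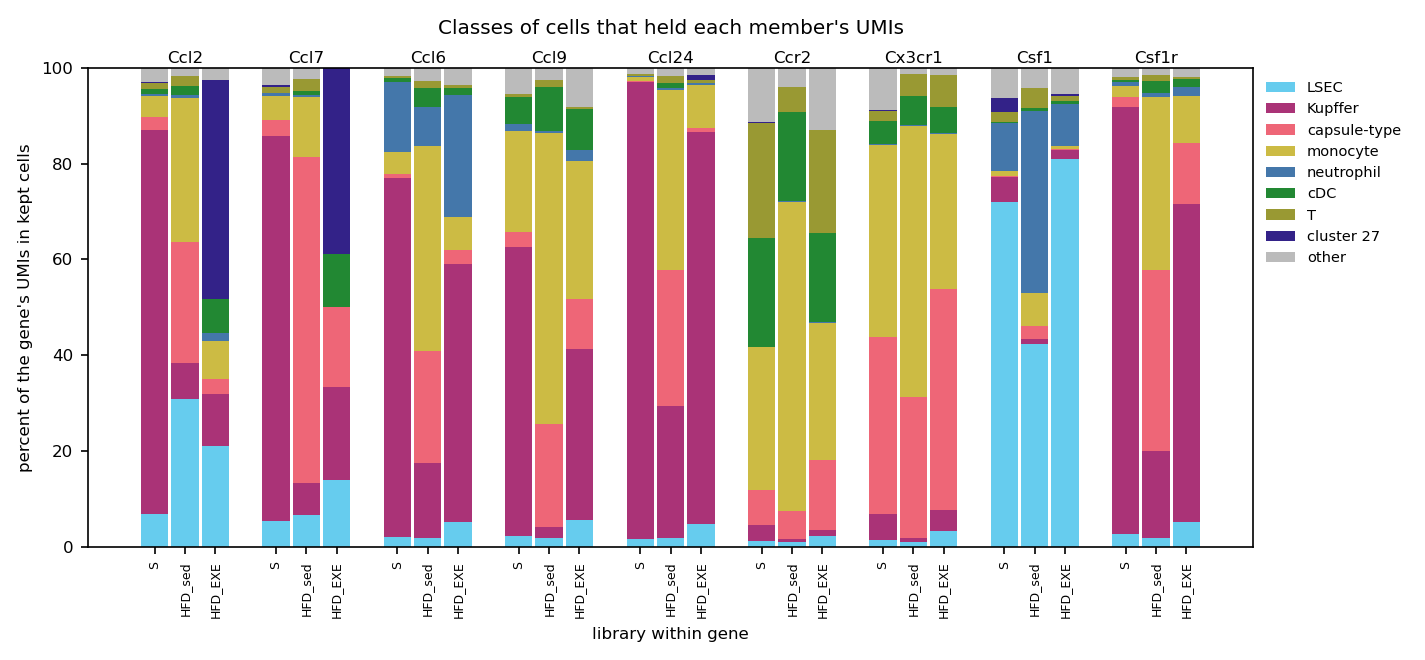
Percent of each gene's UMIs in kept cells that each class held, for each library (bars from 0 to 100%). Kupffer cells hold most of Ccl2, Ccl7, Ccl24 and Csf1r in S, and a minority of them in HFD_sed.

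To hold cell numbers fixed, the UMIs per kept cell of a library were recomputed. Each class kept its own UMIs per cell but took its share of cells from the library compared with. These folds are in UMIs per cell and not in CPM, so differences in depth stay in them. Median depth of Kupffer cells, for one, was 9573 UMIs in S and 3085.5 UMIs in HFD_sed. Ccr2 was 2.61 times as high in HFD_sed as in S over all cells, and 0.717 times as high at the class shares of S. Cx3cr1 went from 3.56 to 0.803 times and Ccl9 from 2.30 to 0.703 times. These 3 genes were thus higher in HFD_sed as a whole and not higher once the class shares were held, with monocytes at 1.87% of cells in S and 11.8% in HFD_sed. Ccl24 and Ccl6 were low both ways, at 0.196 and 0.356 times S over all cells and 0.220 and 0.297 times at its class shares, as was Csf1r at 0.457 and 0.368 times. In CPM, the Csf1r log2 ratio of HFD_sed to S was -0.46 in Kupffer cells and 0.34 in monocytes, both short of 1.5-fold.

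Between HFD_EXE and HFD_sed the same 3 genes moved closer to 1, Ccr2 going from 0.210 to 0.955, Cx3cr1 from 0.172 to 0.925 and Ccl9 from 0.336 to 1.16 times. Ccl2 and Ccl7 stayed low: they were at 0.272 and 0.101 times HFD_sed over all cells, and at 0.367 and 0.152 times with the class shares of HFD_sed. Csf1 was 1.69 times HFD_sed over all cells and 0.966 times at its class shares. The CCR2 ligands of HFD_EXE were thus low at fixed class shares, while both receptors came near HFD_sed as sums over classes. Within dendritic cells, both receptors were at least 1.5-fold lower in HFD_EXE than in HFD_sed. Within monocytes both stood below HFD_sed but short of 1.5-fold, at log2 ratios of -0.56 for Ccr2 and -0.48 for Cx3cr1. In capsule-type macrophages, given by levels alone, both stood above HFD_sed. The sums therefore do not show unchanged levels within classes.

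**Figure D5:**
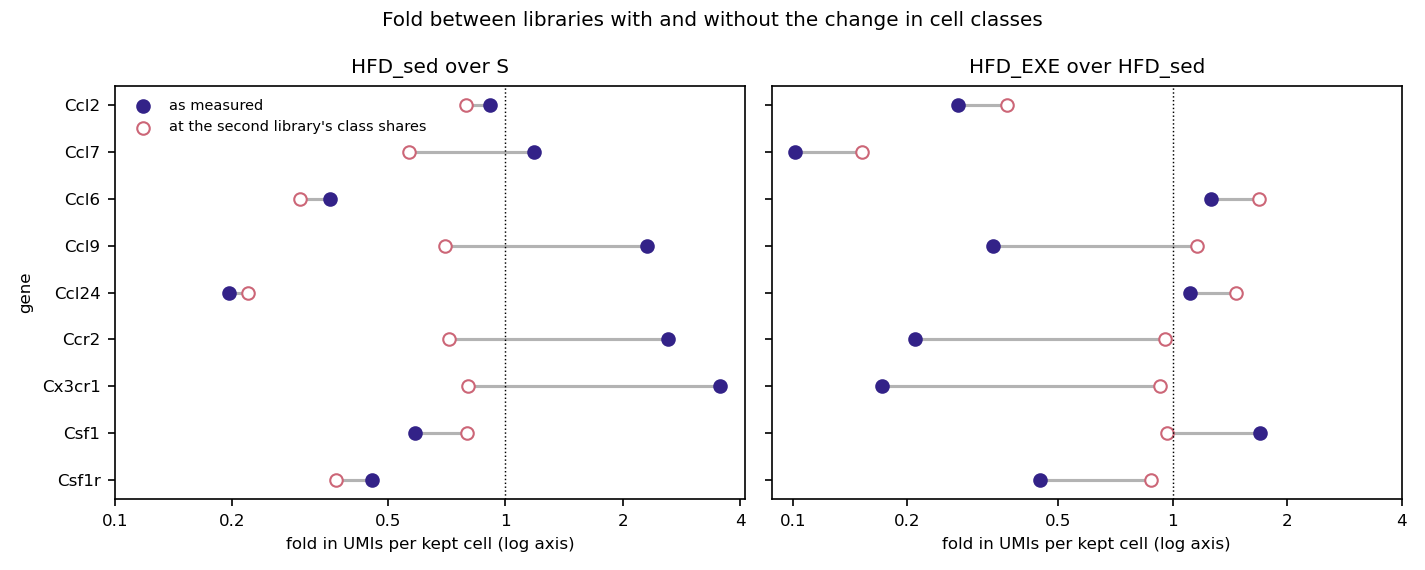
Fold between libraries in UMIs per kept cell (log axis) for each gene, as measured (filled) and at the class shares of the library named second (open). In both panels Ccr2, Cx3cr1 and Ccl9 lie far from the line at 1 as measured and near or across it at fixed shares, and Ccl2 and Ccl7 stay below it for HFD_EXE over HFD_sed.

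A list of 20 other genes of the pathway (further CC chemokines, CX3CL1 and IL34 as alternative ligands, CC receptors, scavenging receptors and the CSF2 family) was counted in the same classes. In LSECs, HFD_sed was higher than S for 6 and lower for 1 of the 11 measured, beside 17.3% and 11.9% of all genes. HFD_EXE was higher than HFD_sed for 1 and lower for 8 of 12, beside 11% and 15.8%. Ccl5, a T cell chemokine, was at 15.9, 126 and 22.8 CPM in LSECs and Ccl4 at 15.3, 57.1 and 10.3 CPM, but B cells had 17.5, 118 and 17.7 CPM of Ccl5 and 19.6, 66.2 and 12.7 CPM of Ccl4. T cells held Ccl5 at 2281, 11035 and 3933 CPM. A pair of genes stood above B cells: Ackr4, an atypical receptor that takes up chemokines, at 43.2, 11.1 and 58.1 CPM in LSECs and at most 4.82 CPM in B cells, and Ccrl2, a chemerin-binding receptor, at 26.6, 67.6 and 56.5 CPM against at most 14.4 CPM. Ackr4 was thus lowest, and Ccl2 highest, in LSECs of HFD_sed.

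In Kupffer cells, HFD_sed was higher for 5 and lower for 5 of 15 measured genes, beside 11.2% and 14.4% of all genes. HFD_EXE was higher than HFD_sed for 2 and lower for 5 of 13, beside 12.8% and 9.37%. Ccl8, another CC chemokine, was at 2.98, 13.7 and 0.186 CPM, the last from 1 UMI. Few cells held it: 12 Kupffer cells of S and 6 of HFD_sed, with 29 of the 42 UMIs of HFD_sed in 1 cell, and without the richest cell S and HFD_sed were at 1.93 and 4.25 CPM. Ccl3 and Ccl4, macrophage inflammatory proteins, were at 132, 188 and 53.1 CPM and 398, 559 and 192 CPM. Ccl3, Ccl4 and Ccl8 were, like Ccl2 and Ccl7, lowest in HFD_EXE Kupffer cells.

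In monocytes, HFD_sed was higher for 6 and lower for 0 of 10 measured genes, beside 13.1% and 23.4% of all genes. HFD_EXE was higher than HFD_sed for 0 and lower for 5 of 10, beside 18.3% and 9.82%. Ccrl2 was at 71.0, 316 and 80.5 CPM, Ccl5 at 115, 426 and 252 CPM, Ccl4 at 204, 461 and 261 CPM and Ccl3 at 98.8, 204 and 114 CPM. The immediate early and heat shock list was at 9194, 16327 and 8714 CPM in the same monocytes, highest in the same library, and its part was not tested. Cx3cl1 and Il34, named because they are the other ligands of CX3CR1 and CSF1R, had at most 0.199 CPM in LSECs.

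Likeness of pattern was measured as Pearson's r of log2(CPM + 1) over the 27 sums of compared class and library, which share libraries and depth and so carry no p. Csf1r was most like Clec4a1 (0.96) and Pla2g4a (0.95), Ccl6 like Cd300lb (0.96) and Pilrb2 (0.95), and Ccl9 like Ptpro (0.93) and P2ry6 (0.92). Ccl24 was most like Lilra5 (0.96) and Itgb5 (0.95), Ccr2 like S100a4 (0.96) and Sulf2 (0.92), and Cx3cr1 like Mcub (0.87) and S100a4 (0.86). Ccl2 was most like Sowahc and Clec4a1 (0.86 each), Ccl7 like Mmp12 (0.74) and Fblim1 (0.71), and Csf1 like Igf1r and Hdc (0.93 each). Among the 9 genes, Ccr2 and Cx3cr1 had the highest r (0.91), then Ccl24 and Csf1r (0.90), while the r of Csf1 with the others lay between -0.44 (Ccr2) and 0.37 (Ccl6).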

How the data were processed

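Droplet libraries of dissociated liver non-parenchymal cells were counted by the authors with Cell Ranger 6.1.2 on the mouse build GRCm39, per the submitters' processing notes. The deposited matrices hold raw UMI counts per gene and barcode, with no normalization, and no barcode had fewer than 500 UMIs. How intronic reads were counted is not given in the sources used here. S, HFD_sed and HFD_EXE held 84666844, 63456399 and 60901242 UMIs in 11660, 11752 and 11280 barcodes.

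Counts of identifiers with the same symbol were summed. Cells were kept with at least 500 UMIs, 300 genes and under 15% mitochondrial UMIs. Scrublet, in Scanpy 1.11.5, removed 403, 328 and 295 cells as doublets; its threshold in all libraries was the mean of those it set by itself in S and HFD_sed, since in HFD_EXE the automatic one marked 0. Clustering used 2000 variable genes, 30 principal components in double precision, 15 neighbours with edges weighted by the neighbours 2 cells share, and Leiden (leidenalg 0.10.2) at resolution 1.0, without the 9 genes and the pathway list, and gave 31 clusters. A cluster took a cell type's name from at least 3 markers, each found in a fraction of 0.2 or more of the cluster's cells and with a log2 fold of at least 1. It stayed unnamed where its 10 leading genes against clusters of other lineages held more markers of another type, a rule set after the clusters were seen. The way the neighbour graph is built was also settled after a first clustering, so that the result does not depend on rounding. No author annotation was used, so classes can differ from the study's. By fold over all other cells, cluster 2, which holds most LSECs of HFD_sed, had no LSEC marker among its 10 leading genes and 1 mesothelial marker, Gpm6a.

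UMIs were summed per class and library. Ratios carry exact conditional binomial 95% intervals, shares exact Clopper-Pearson intervals in the tables behind the text, and a gene with 0 UMIs a floor of 3 counts. A gene was measured with at least 20 UMIs in both libraries together. The code for ratios was tested on simulated data. The text names all 9 genes, the 4 pathway genes per class and comparison whose interval bound lay farthest from no change, and the 2 genes most like each member, except 1 pathway gene that is not reported here; the basophil, capsule-type and cluster 27 values were chosen after they were seen. The members and lists were chosen with earlier results of these data known.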

Additional observations from a re-analysis of the deposited data

Results flagged for a closer look

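Some genes lay on opposite sides in different classes under the same comparison. Each group had 1 library, so these differences between classes were not tested. Ccl2 in HFD_sed over S had a log2 ratio of 3.02 in LSECs and -0.59 in Kupffer cells, and the latter is near the 1.5-fold limit. Ccl24 in HFD_sed over S had a log2 ratio of -1.18 in Kupffer cells and -1.18 in LSECs, where it was at the level of B cells, and 0.88 in monocytes, where cells with 10 or more UMIs held most of it. Ccl7 in HFD_sed over S had a log2 ratio of 1.57 in LSECs, from 25 and 16 UMIs, and -0.99 in monocytes, from 47 and 15 UMIs. The 15 UMIs of S lay in 1 of the 32 monocytes with Ccl2 and 2 of the 159 without. Ccl9 in HFD_EXE over HFD_sed had a log2 ratio of 1.42 in Kupffer cells and -1.02 in LSECs, and the LSEC level was again near that of B cells.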

How the results depend on the processing

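Over LSECs, Kupffer cells and monocytes together, the 9 genes were past 1.5-fold in 15 cases for HFD_sed over S, 17 for HFD_EXE over HFD_sed and 13 for HFD_EXE over S. All 9 were measured in each class, except 8 in monocytes for HFD_EXE over S. Of all genes in these classes in turn, 17.3%, 11.2% and 13.1% were higher and 11.9%, 14.4% and 23.4% lower for HFD_sed over S. For HFD_EXE over HFD_sed 11%, 12.8% and 18.3% were higher and 15.8%, 9.37% and 9.82% lower. For HFD_EXE over S 11.1%, 15.1% and 9.6% were higher and 11.5%, 14.3% and 13.5% lower. With a fold of 2 the counts were 9, 12 and 6, since fewer ratios reach it. Over the other alternatives run (cell filter, doublets, clustering resolution, members kept in clustering, mean over cells, subtraction of the B cell level, count filter, and 6 chosen after seeing the data: another seed, an unweighted graph and 4 groupings of clusters) the counts stayed within 1.5 times of these. Of the log2 ratios of single genes under an alternative, 801 of 903 moved by less than their counting interval, 99 moved by more, and 3 that passed 1.5-fold turned: Csf1r in LSECs, HFD_sed over S, at 0.0055 with the B cell level subtracted, Ccl7 in LSECs, HFD_EXE over S, at 0.60 with the same, and Ccl9 in Kupffer cells, HFD_EXE over HFD_sed, at -0.19 with capsule-type macrophages counted as Kupffer. Another alternative, not listed above, left out clusters of low UMI count. It removed no cell of LSECs, Kupffer cells or monocytes, so its ratios could not move and are all among the 801. Among the 801 and the 99, 30 changed sign, all for 14 ratios that had not passed 1.5-fold. With capsule-type macrophages counted as Kupffer, Ccl7 and Ccl9 in Kupffer cells, HFD_sed over S, went to 1.49 and 1.21, and Ccr2, HFD_EXE over S, to 1.56; in monocyte cluster 8 alone Csf1, HFD_sed over S, went to 0.59. Ccl2 in LSECs, HFD_sed over S, stayed between 2.85 and 3.57. No paired analysis was possible because each group had 1 library. Depth limits Ccl7 in particular, and the difference between mice was not measured.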
